A study of Mus musculus with 12 samples.

Results

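In 4T1 cells, 10 genes of the NF-κB system were followed: the subunit genes *Nfkb1*, *Nfkb2*, *Rela* and *Relb*, and the feedback genes *Nfkbia*, *Nfkbiz*, *Bcl3*, *Tnfaip3*, *Birc3* and *Tnfaip2*. They were chosen by name for their known role in the pathway, and all 10 were found among 35521 genes with an annotated transcript. The 4T1 line is a mammary carcinoma line from a BALB/c mouse. The data are bulk RNA-Seq of 3 groups, each of 4 libraries. The Tu-Gr1+CD11b+–primed 4T1 cells had shared a well for 48 hours with Gr1+ cells from tumors of mice bearing 4T1 tumors, and Spl-Gr1+CD11b+–primed 4T1 cells with Gr1+ cells from spleens of such mice. Parental 4T1 cells received no Gr1+ cells, and no coculture time or pore size is listed for them. In the primed groups, a Transwell membrane with 0.4 μm pores kept both cell types apart, so that only material passing the pores was exchanged. The labels place the isolation of the Gr1+ cells on magnetic columns at day 21 after tumor cell injection. A figure legend of the study's paper also gives day 21, whereas its methods give a later day. A single cell line was used, no age of the mice is given in the labels, and the labels do not say whether the 4 libraries of a group came from separate cultures or from pooled mice, so that p-values measure the spread between these libraries.

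NF-κB is a family of dimeric transcription factors. In resting cells, inhibitors of the IκB type hold the dimers in the cytoplasm. Ligands such as TNF and IL-1 activate the IκB kinase complex, IκBα is degraded, and dimers such as p50 with RELA enter the nucleus, which is known as the canonical branch. In the noncanonical branch, the kinase NIK leads to the processing of p100, the product of *Nfkb2*, to p52, which pairs with RELB. Many of the genes that NF-κB turns on encode its own inhibitors, and this feedback limits the length of the response in epithelial, stromal and immune cells.

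Sequences near the start sites of the genes are shown because NF-κB is known to bind several of these promoters. RefSeq promoters on GRCm38.p6, with 250 bases before and 50 after a start site, were found for 7 of the 10 genes, in 10 entries. *Nfkb1*, *Relb* and *Nfkbiz* had no entry. The 10-base κB consensus was searched on both strands, and at least 1 match was found in 7 of the 10 entries, belonging to 5 genes (*Bcl3*, *Tnfaip3*, *Nfkbia*, *Tnfaip2* and *Nfkb2*). Of 32851 promoters of this length, 8.46% held a match. Capitals mark the match, 10 bases are shown on each side, and each line is written 5′ to 3′ on the strand of its gene:
Nfkbia: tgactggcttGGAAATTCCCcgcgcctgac
Bcl3: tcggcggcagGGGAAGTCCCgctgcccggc
Tnfaip3: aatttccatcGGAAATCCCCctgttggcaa
Nfkb2: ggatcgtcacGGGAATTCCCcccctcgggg
Tnfaip2: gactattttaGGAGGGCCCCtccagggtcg
The capitals of *Nfkbia* lie on chr12:55492667-55492676 (minus strand), from base -29 to base -20 relative to the start site, and those of *Bcl3* on chr7:19822744-19822753 (minus strand), from base 3 to base 12 of the transcript. The capitals of *Tnfaip3* lie on chr10:19015413-19015422 (minus strand, base -12 to base -3), those of *Nfkb2* on chr19:46304698-46304707 (plus strand, base -39 to base -30), and those of *Tnfaip2* on chr12:111442637-111442646 (plus strand, base -24 to base -15). Positions count from the RefSeq start site of each entry. The gene coordinates given below begin further upstream for *Tnfaip3*, *Nfkb2* and *Tnfaip2*, so their capitals lie inside those coordinates. Further matches stood in *Tnfaip3* and *Nfkb2*, and a second *Nfkb2* match overlapped the one shown by all but 1 base. The *Nfkb2* entries that begin at 46305445 and 46305680 overlap and share the match at chr19:46305705-46305714. This site was therefore counted for both entries, and it is the only match in the latter.

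The form TTCNNNGAA, which STAT factors are known to bind, was found in *Nfkb2* alone, against 8.3% of all promoters. The AP-1 type form TGANTCA was found in *Tnfaip3* and *Nfkb2*, against 7.81%. These are letters in a window of DNA, and binding was not measured.

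The libraries held from 24566183 to 31637755 assigned reads, and the counts of the 10 genes ranged from 289 (*Bcl3*, parental replicate 3) to 11607 (*Tnfaip2*, Tu-Gr1+CD11b+–primed replicate 3). All 10 epithelial markers listed for carcinoma cells were detected, with summed levels of 1975 to 2413 counts scaled to library size (CPM) in Tu-Gr1+CD11b+–primed, 2487 to 2681 in Spl-Gr1+CD11b+–primed and 2784 to 4096 in parental libraries. Of 26 granulocyte and myeloid markers, 8 had 0 counts in all 12 libraries, among them *Mpo*, *Elane*, *Camp* and *Tyrobp*. Markers with at most 3 counts numbered 16 in Tu-Gr1+CD11b+–primed, 16 in Spl-Gr1+CD11b+–primed and 17 in parental libraries. A count of 0 does not exclude a low level. The summed level of the 26 markers was 246 to 268 CPM in Tu-Gr1+CD11b+–primed, 253 to 263 in Spl-Gr1+CD11b+–primed and 193 to 220 in parental libraries. Without *Itgb2*, which was set apart after the values were seen, it was 26.3 to 31.5, 20.7 to 25.8 and 21.7 to 25.7 CPM. Of these markers 6 had enough counts for the test. *Ltf*, which encodes lactoferrin of neutrophil granules and glandular epithelium, and *S100a8*, a neutrophil calcium-binding protein gene, passed it as higher in Tu-Gr1+CD11b+–primed cells, by 1.16 (SE 0.17) and 0.93 (SE 0.24) on the log2 scale against Spl-Gr1+CD11b+–primed cells and by 1.21 (SE 0.18) and 0.62 (SE 0.23) against parental cells, at levels of up to 5.18 and 3.84 CPM (edgeR). *Itgb2*, an integrin subunit gene of leukocytes, was higher by 0.31 (SE 0.06) in Tu-Gr1+CD11b+–primed and 0.35 (SE 0.06) in Spl-Gr1+CD11b+–primed than in parental cells, and none of the 6 was called lower in the 3 comparisons. The part of these marker differences in the results was not tested. Pairs of replicates were compared by chi-square per degree of freedom over genes. Spl-Gr1+CD11b+–primed replicate 3 stood apart from its group, with 31.4 to 39.2 against 3.45 to 7.57 among the other 3, and parental replicate 4 was at 56.0 and 62.1 against replicates 1 and 2 but at 17.1 against replicate 3. Without Spl-Gr1+CD11b+–primed replicate 3 the edgeR calls of *Nfkb2* between the primed groups (adjusted p = 0.113) and of *Bcl3* (adjusted p = 0.134) in Spl-Gr1+CD11b+–primed against parental cells were lost, and without parental replicate 4 that of *Nfkb2* in Spl-Gr1+CD11b+–primed against parental cells (adjusted p = 0.0555), and no other call of the 10 genes was lost without either library.

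The feedback genes and *Nfkb1* were higher in primed than in parental 4T1 cells, and *Nfkb2* and *Rela* were lower. In Tu-Gr1+CD11b+–primed against parental 4T1 cells, 7 of the 10 genes rose and 2 fell at an adjusted p under 0.05 (quasi-likelihood test of edgeR, Benjamini-Hochberg adjustment over 12555 genes), against 31.2% of all tested genes called higher and 28.0% called lower. In Spl-Gr1+CD11b+–primed against parental cells, the same test also called 7 higher and 2 lower, against 25.7% and 22.5% of all tested genes. In both, the 2 lower calls among 10 genes were no more than the share of all tested genes called lower. Between both primed groups, 4 genes were higher in Tu-Gr1+CD11b+–primed cells and 1 was lower, against 4.66% and 2.97% of all tested genes. The number of all tested genes called lower in this comparison, 373, was 162, 137 and 118 without Tu-Gr1+CD11b+–primed replicate 1, 2 and 3, 241 and 209 without Spl-Gr1+CD11b+–primed replicate 1 and 2, and 531 without Tu-Gr1+CD11b+–primed replicate 4. The comparisons with parental cells share the parental libraries, so their values are given side by side. The median log2 fold change of the 10 genes was 0.34 in Tu-Gr1+CD11b+–primed against parental cells, 0.21 in Spl-Gr1+CD11b+–primed against parental cells and 0.06 between the primed groups, where the median of all tested genes was 0.02, 0.02 and -0.01.

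The groups of libraries were also compared without a model. In Tu-Gr1+CD11b+–primed against parental libraries, all 4 primed libraries lay above all 4 parental libraries for 7 of the 10 genes and below them for 2, against 28.6% and 26.9% of all tested genes. In Spl-Gr1+CD11b+–primed against parental libraries, this was so for 5 and 2 genes, against 21.3% and 18.3%. Between the primed groups it was so for 4 and 1 genes, against 8.51% in each direction.

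**Figure D1:**
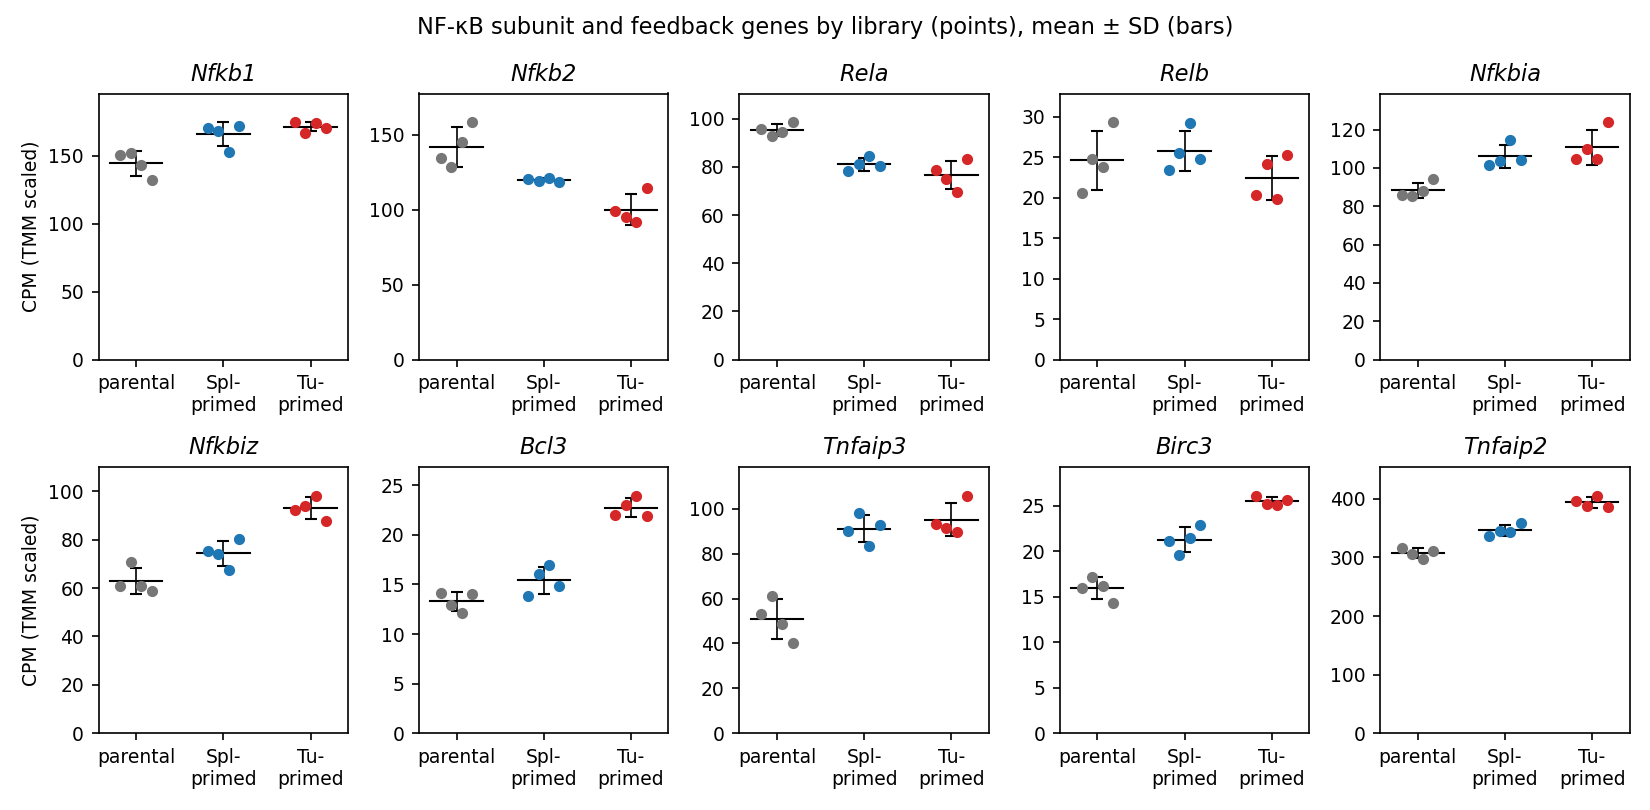
Each panel shows 1 gene, with the level in CPM (scaled by TMM factors) on the vertical axis and 1 point per library for parental, Spl-Gr1+CD11b+–primed and Tu-Gr1+CD11b+–primed 4T1 cells; bars are the mean ± SD of 4 libraries. *Bcl3* is at 21.9 to 24.0 CPM in the Tu-Gr1+CD11b+–primed libraries and at 17.0 or less in the other 8, whereas *Tnfaip3* is raised to like levels in both primed groups and *Nfkb2* is lowest in the Tu-Gr1+CD11b+–primed group.

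The feedback genes whose products act inside the signaling chain came first. *Tnfaip3* (chr10:19000910-19015657, minus strand, GRCm38) encodes A20, a ubiquitin-editing enzyme that restrains signaling upstream of the IκB kinases. It was at 93.3, 91.5, 89.7 and 106 CPM in Tu-Gr1+CD11b+–primed libraries 1 to 4, at 89.9, 97.9, 83.6 and 92.9 CPM in Spl-Gr1+CD11b+–primed libraries, and at 53.3, 61.2, 48.6 and 40.2 CPM in parental libraries. All 8 primed libraries lay above all 4 parental ones, and both primed groups overlapped. *Tnfaip3* was 1.87-fold higher in Tu-Gr1+CD11b+–primed than in parental cells (log2 fold change 0.90, SE 0.10, adjusted p = 7.92e-06, edgeR) and 1.79-fold higher in Spl-Gr1+CD11b+–primed cells (0.84, SE 0.10, adjusted p = 3.03e-05, edgeR). The log2 difference between the primed groups was 0.06 with an SE of 0.10 and did not pass the test (adjusted p = 0.768, edgeR).

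*Nfkbia* (chr12:55489410-55492647, minus strand) encodes IκBα, the inhibitor that is degraded when the canonical branch is activated and is made again as NF-κB acts. Its level was between 105 and 124 CPM in Tu-Gr1+CD11b+–primed, between 101 and 115 in Spl-Gr1+CD11b+–primed and between 85.3 and 94.2 in parental libraries. As with *Tnfaip3*, every primed library lay above every parental one and the primed groups overlapped. The log2 fold change was 0.33 (SE 0.06, adjusted p = 0.000657) in Tu-Gr1+CD11b+–primed and 0.26 (SE 0.06, adjusted p = 0.00431) in Spl-Gr1+CD11b+–primed against parental cells in edgeR. Between the primed groups it was 0.06 (SE 0.06, adjusted p = 0.606, edgeR).

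*Birc3* (chr9:7848699-7873186, minus strand) encodes cIAP2, a ubiquitin ligase of the TNF receptor complex that also takes part in the turnover of NIK. It was at 26.1, 25.2, 25.1 and 25.6 CPM in the 4 Tu-Gr1+CD11b+–primed libraries, at 21.1, 19.6, 21.4 and 22.9 CPM in the Spl-Gr1+CD11b+–primed libraries and at 16.0, 17.2, 16.2 and 14.3 CPM in the parental libraries. The 3 groups were fully apart, with parental cells lowest and Tu-Gr1+CD11b+–primed cells highest. *Birc3* was 1.60-fold higher in Tu-Gr1+CD11b+–primed than in parental cells (log2 fold change 0.68, SE 0.07, adjusted p = 2.33e-06, edgeR) and 1.33-fold higher in Spl-Gr1+CD11b+–primed cells (0.42, SE 0.07, adjusted p = 0.000231, edgeR). It was 1.20-fold higher in Tu-Gr1+CD11b+–primed than in Spl-Gr1+CD11b+–primed cells (0.26, SE 0.06, adjusted p = 0.0224, edgeR). This last call was lost in 7 of 22 alternatives, among them transcript length offsets (adjusted p = 0.221, DESeq2) and leaving out any of 5 libraries, Tu-Gr1+CD11b+–primed 1, 2 or 3 or Spl-Gr1+CD11b+–primed 1 or 2 (largest adjusted p = 0.0766).

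The nuclear IκB proteins bind p50 or p52 on DNA and can raise or lower transcription of chosen genes. *Bcl3* (chr7:19808462-19822770, minus strand), which encodes such a protein, had the smallest p of the 10 genes between the primed groups and in Tu-Gr1+CD11b+–primed against parental cells. It was at 22.0, 23.1, 24.0 and 21.9 CPM in Tu-Gr1+CD11b+–primed libraries, at 13.8, 16.1, 17.0 and 14.9 CPM in Spl-Gr1+CD11b+–primed libraries and at 14.1, 13.0, 12.1 and 14.0 CPM in parental libraries. The Tu-Gr1+CD11b+–primed libraries stood above the other 8, whereas Spl-Gr1+CD11b+–primed and parental libraries overlapped. *Bcl3* was 1.48-fold higher in Tu-Gr1+CD11b+–primed than in Spl-Gr1+CD11b+–primed cells (log2 fold change 0.56, SE 0.07, adjusted p = 0.000273, edgeR), at rank 111 by p among 12555 genes, and 1.71-fold higher than in parental cells (0.77, SE 0.08, adjusted p = 2.23e-06, edgeR). In Spl-Gr1+CD11b+–primed against parental cells the fold was 1.16 (0.21, SE 0.08, adjusted p = 0.0349, edgeR), and this call was lost in 10 of 22 alternatives, with adjusted p up to 0.134, among them leaving out Spl-Gr1+CD11b+–primed replicate 2 or 3 or parental replicate 2 or 3.

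The size of the *Bcl3* difference rested on how its transcripts were weighed. With offsets for average transcript length in DESeq2, the log2 fold change rose to 0.99 between the primed groups and to 1.27 against parental cells. These were the upper ends over the 22 alternatives. The lower ends were 0.46 between the primed groups and 0.71 for Tu-Gr1+CD11b+–primed against parental cells, and both calls were kept in all 22. The mean effective length of the gene's transcripts, weighted by their TPM so that short transcripts count by abundance and not by reads, was 851 ± 99.2 bases in Tu-Gr1+CD11b+–primed, 1159 ± 275 in Spl-Gr1+CD11b+–primed and 1212 ± 80.3 in parental cells (SD, n = 4). The main coding transcript Bcl3-201 of 1850 bases held 78.2% ± 5.06, 86.0% ± 8.79 and 91.1% ± 2.79 of the gene's reads in these groups. The short transcripts Bcl3-203 (755 bases) and Bcl3-204 (460 bases) held 11.4% ± 3.66 and 8.32% ± 2.37 of the reads in Tu-Gr1+CD11b+–primed cells, 10.2% ± 4.66 and 3.06% ± 3.53 in Spl-Gr1+CD11b+–primed cells, and 5.76% ± 3.62 and 2.96% ± 2.00 in parental cells. The share of Bcl3-203 thus lay close in both primed groups. The annotation also places the antisense genes *Gm16175* and *Gm16174* over *Bcl3*, and the kit keeps strand but the counting's strand setting is not given in the sources used here.

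*Nfkbiz* (chr16:55811375-55838899, minus strand) encodes IκBζ, a nuclear IκB protein needed for the expression of a set of secondary inflammatory genes. It was at 92.4, 94.0, 98.3 and 87.5 CPM in Tu-Gr1+CD11b+–primed libraries, at 75.1, 74.2, 67.7 and 80.4 CPM in Spl-Gr1+CD11b+–primed libraries and at 60.8, 70.8, 60.8 and 58.8 CPM in parental libraries. The Tu-Gr1+CD11b+–primed libraries were apart from all others, and parental replicate 2 overlapped with the Spl-Gr1+CD11b+–primed libraries. *Nfkbiz* was 1.25-fold higher in Tu-Gr1+CD11b+–primed than in Spl-Gr1+CD11b+–primed cells (log2 fold change 0.32, SE 0.07, adjusted p = 0.00914, edgeR) and 1.48-fold higher than in parental cells (0.57, SE 0.07, adjusted p = 1.26e-05, edgeR). In Spl-Gr1+CD11b+–primed against parental cells it was 1.18-fold higher (0.24, SE 0.07, adjusted p = 0.00953, edgeR). All 3 calls were kept in all 22 alternatives.

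*Tnfaip2* (chr12:111442469-111455018, plus strand) is a TNF-inducible gene whose product is linked to membrane protrusions. It was at 396, 388, 406 and 386 CPM in Tu-Gr1+CD11b+–primed libraries, at 337, 345, 343 and 360 CPM in Spl-Gr1+CD11b+–primed libraries and at 316, 306, 297 and 310 CPM in parental libraries. As with *Birc3*, the 3 groups were fully apart and in the same order. The log2 fold change was 0.19 between the primed groups (SE 0.04, adjusted p = 0.0177), 0.36 in Tu-Gr1+CD11b+–primed against parental cells (SE 0.04, adjusted p = 1.47e-05) and 0.17 for Spl-Gr1+CD11b+–primed against parental cells (SE 0.04, adjusted p = 0.00548) in edgeR. With transcript length offsets in DESeq2, the difference between the primed groups was 0.27 (adjusted p = 0.221) and that of Spl-Gr1+CD11b+–primed against parental cells 0.09 (adjusted p = 0.592). The call between the primed groups was lost in 6 of 22 alternatives, among them this one and leaving out Tu-Gr1+CD11b+–primed replicate 1 or 3 or Spl-Gr1+CD11b+–primed replicate 1 or 2 (largest adjusted p = 0.0726, edgeR), and the antisense gene *Gm40578* overlaps *Tnfaip2*.

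**Figure D2:**
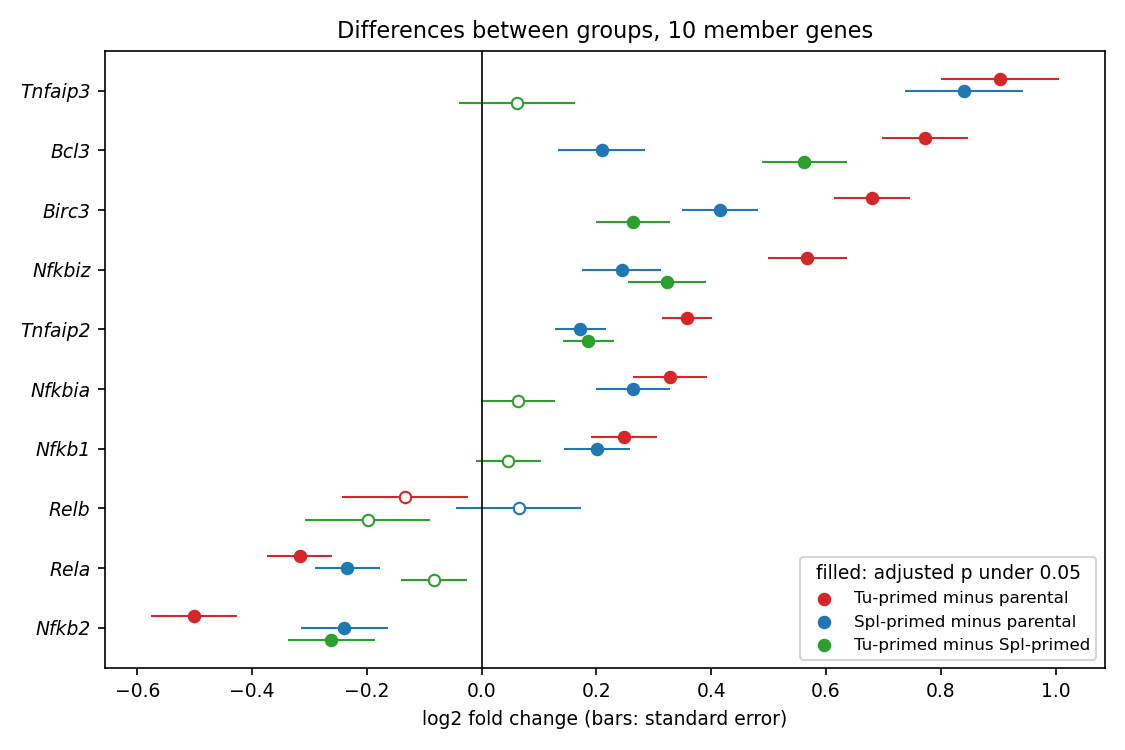
Log2 fold changes of the 10 genes (horizontal axis) with their standard errors (bars) in the 3 comparisons, ordered by the difference between Tu-Gr1+CD11b+–primed and parental cells; filled points had an adjusted p under 0.05 in edgeR and open points did not. *Tnfaip3* is at 0.90 and 0.84 against parental cells and at 0.06 between the primed groups, whereas *Bcl3* is at 0.77, 0.21 and 0.56.

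The subunit genes did not move as 1 group. *Nfkb1* (chr3:135584655-135691547, minus strand) encodes p105, the precursor of p50. Its level was between 167 and 175 CPM in Tu-Gr1+CD11b+–primed, between 153 and 172 in Spl-Gr1+CD11b+–primed and between 132 and 152 in parental libraries. *Nfkb1* was higher in Tu-Gr1+CD11b+–primed (log2 fold change 0.25, SE 0.06, adjusted p = 0.00194) and also in Spl-Gr1+CD11b+–primed cells (0.20, SE 0.06, adjusted p = 0.00991) than in parental cells in edgeR, and the primed groups overlapped (0.05, SE 0.06, adjusted p = 0.677, edgeR). When only protein-coding transcripts were summed, the difference between Spl-Gr1+CD11b+–primed and parental cells was 0.08 (adjusted p = 0.369, edgeR).

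*Nfkb2* (chr19:46304320-46312385, plus strand) encodes p100, which is both the precursor of p52 and an inhibitor of RELB dimers, and it moved the other way. It was at 99.1, 95.2, 91.4 and 114 CPM in Tu-Gr1+CD11b+–primed libraries, at 121, 119, 121 and 119 CPM in Spl-Gr1+CD11b+–primed libraries and at 134, 128, 145 and 158 CPM in parental libraries. The 3 groups were fully apart, with parental cells highest. The log2 fold change was -0.50 in Tu-Gr1+CD11b+–primed (SE 0.08, adjusted p = 7.62e-05) and -0.24 for Spl-Gr1+CD11b+–primed against parental cells (SE 0.08, adjusted p = 0.0177), and -0.26 between the primed groups (SE 0.08, adjusted p = 0.0499) in edgeR. The last call lies at the threshold and was lost in 12 of 22 alternatives (9 of them left out 1 library, namely Tu-Gr1+CD11b+–primed 1, 2 or 3, any Spl-Gr1+CD11b+–primed one, or parental 1 or 3), with adjusted p between 0.00875 and 0.172 over all of them and the same direction in each. The call of Spl-Gr1+CD11b+–primed against parental cells was lost without parental replicate 4 (-0.18, adjusted p = 0.0555, edgeR), and *Nfkb2* overlaps *AC114539.1* and *Psd* on the other strand.

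*Rela* (chr19:5637483-5648130, plus strand) encodes RELA, also called p65, the transactivating subunit of the canonical branch. It was between 69.7 and 83.4 CPM in Tu-Gr1+CD11b+–primed, between 78.2 and 84.6 in Spl-Gr1+CD11b+–primed and between 92.8 and 98.7 in parental libraries. All primed libraries were below all parental libraries. The log2 fold change was -0.32 (SE 0.06, adjusted p = 0.000307) in Tu-Gr1+CD11b+–primed and -0.23 (SE 0.06, adjusted p = 0.00397) in Spl-Gr1+CD11b+–primed against parental cells in edgeR, and the latter was not called with transcript length offsets (-0.19, adjusted p = 0.0943, DESeq2). Between the primed groups it was -0.08 (SE 0.06, adjusted p = 0.422, edgeR).

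*Relb* (chr7:19606217-19629438, minus strand) encodes the partner of p52 in the noncanonical branch. Its level was between 19.9 and 25.2 CPM in Tu-Gr1+CD11b+–primed, between 23.4 and 29.2 in Spl-Gr1+CD11b+–primed and between 20.6 and 29.3 in parental libraries. All 3 groups overlapped, and no comparison passed the test. The log2 fold change was -0.13 (SE 0.11, adjusted p = 0.312) in Tu-Gr1+CD11b+–primed and 0.07 (SE 0.11, adjusted p = 0.646) in Spl-Gr1+CD11b+–primed against parental cells, and -0.20 (SE 0.11, adjusted p = 0.304) between the primed groups in edgeR. Its sign in Spl-Gr1+CD11b+–primed against parental cells changed in 3 of 22 alternatives.

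Levels can be compared between genes only per transcript length, as TPM, and only within a library. The TPM of a gene also counts its short non-coding transcripts, and the order over coding transcripts alone was not tested. *Tnfaip2* had the highest TPM of the 10 genes in each of the 12 libraries and *Nfkbia* the next. Their mean TPM was 321 and 157 in Tu-Gr1+CD11b+–primed, 258 and 150 in Spl-Gr1+CD11b+–primed and 179 and 88.2 in parental cells. In Tu-Gr1+CD11b+–primed cells, *Nfkb1* (81.7), *Rela* (66.1) and *Nfkb2* (48.7) followed in this order in all 4 libraries with ranges that did not overlap. *Nfkbiz* (37.8), *Bcl3* (37.1) and *Tnfaip3* (36.2) came next and overlapped, and *Birc3* (20.0) and *Relb* (16.7) overlapped at the low end.

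In parental cells *Rela* (59.2 TPM) stood above *Nfkb2* (50.0) and *Nfkb1* (49.2), whose ranges overlapped. By reads *Rela* was lowest of these, with mean levels of 95.4, 142 and 144 CPM. The mean effective length of *Rela*, weighted by TPM, was 1603 bases in parental and 1591 in Tu-Gr1+CD11b+–primed cells, where Rela-201 has 2716 bases. Its place by TPM thus rested in part on short non-coding transcripts such as Rela-203 (786 bases, 10.5% of its parental reads). *Nfkbiz* (18.7), *Tnfaip3* (13.8) and *Relb* (13.5) formed the next overlapping steps, and *Bcl3* (10.9) and *Birc3* (9.02) had the lowest means. In parental replicate 4, *Tnfaip3* (8.44 TPM) was below *Bcl3* (10.5 TPM). By TPM, *Bcl3* was thus above *Relb* in all Tu-Gr1+CD11b+–primed libraries and below it in all parental libraries. By reads both genes were near level in Tu-Gr1+CD11b+–primed cells, with means of 22.8 and 22.4 CPM. The TPM gap there went with the mean effective lengths of 851 bases for *Bcl3* and 1845 for *Relb*, and so with the short *Bcl3* transcripts. TPM values were not compared between groups because mt-Atp8 alone took between 4.53% and 7.05% of all TPM in primed and between 10.2% and 15.0% in parental libraries.

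**Figure D3:**
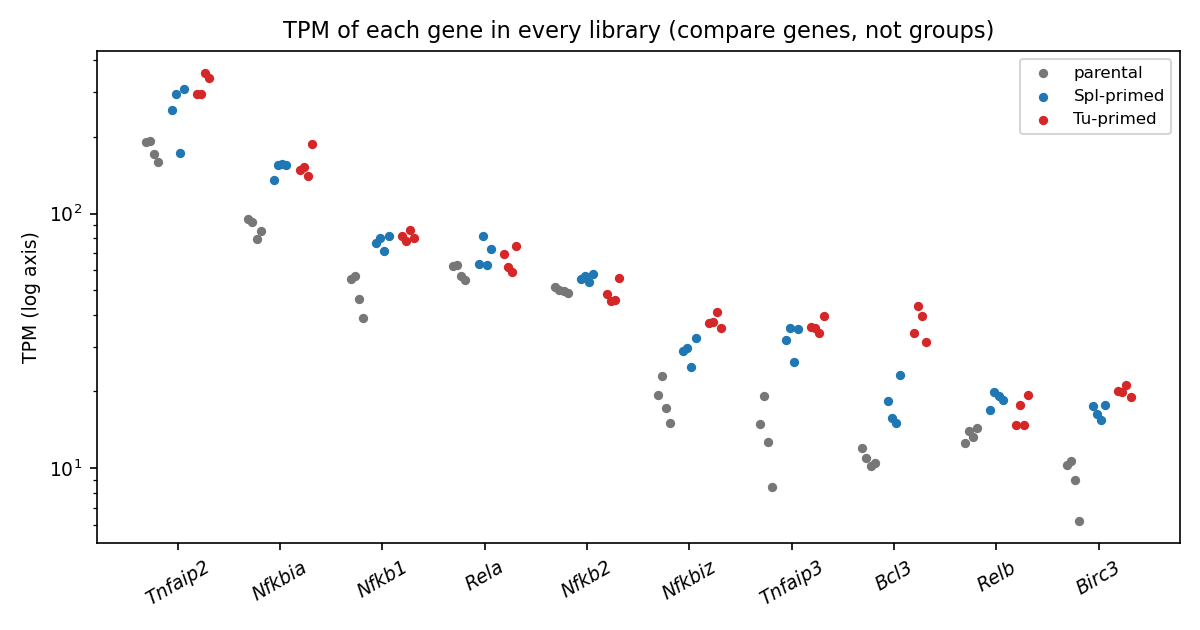
TPM of the 10 genes on a log axis, with 1 point per library for parental, Spl-Gr1+CD11b+–primed and Tu-Gr1+CD11b+–primed 4T1 cells. *Tnfaip2* and *Nfkbia* rank highest in all 12 libraries; genes are to be compared within a library, since the share of TPM taken by other transcripts differs between the groups.

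The reads of a gene were also divided by transcript type. A transcript with a retained intron keeps an intron of the gene and is mostly not translated into the full protein. For 8 of the 10 genes such transcripts are annotated, and their mean share of the gene's reads was higher in both primed groups than in parental cells for each of the 8. Over 7071 genes tested in this way, the mean share was higher in 82.2% of genes in Tu-Gr1+CD11b+–primed and in 81.0% in Spl-Gr1+CD11b+–primed against parental cells. Of all reads, such transcripts held 3.38% ± 0.110 in Tu-Gr1+CD11b+–primed, 3.35% ± 0.241 in Spl-Gr1+CD11b+–primed and 2.13% ± 0.103 in parental cells (SD, n = 4).

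*Nfkb1* and *Relb* had the widest gaps in mean share between primed and parental cells. In *Nfkb1* the share was 3.26%, 5.80%, 8.62% and 8.30% in Tu-Gr1+CD11b+–primed libraries, 8.70%, 14.3%, 13.2% and 12.8% in Spl-Gr1+CD11b+–primed libraries and 2.63%, 3.02%, 1.49% and 1.90% in parental libraries. The 3 groups were apart, with Spl-Gr1+CD11b+–primed cells highest, and Nfkb1-202 (2520 bases) held 8.99% ± 2.29 of the reads in that group. The annotation places *Gm43430* over *Nfkb1* on the same strand, and its part in these shares was not tested. In *Relb* the share was 10.3%, 9.48%, 14.0% and 9.84% in Tu-Gr1+CD11b+–primed libraries, 3.70%, 9.30%, 9.10% and 9.38% in Spl-Gr1+CD11b+–primed libraries and 1.21%, 1.41%, 0.337% and 0.514% in parental libraries. The order of the primed groups was thus turned between these genes, and Relb-206 (3166 bases) held 10.0% ± 1.11 of the *Relb* reads in Tu-Gr1+CD11b+–primed cells.

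Each of these differences reached p = 0.0286, the smallest value that an exact two-sided permutation test of 4 against 4 libraries can give. None of 24 such tests passed after Benjamini-Hochberg adjustment (smallest adjusted p = 0.0762), whereas 9 had an unadjusted p under 0.05. Groups did not overlap for 5 of the 8 genes in Tu-Gr1+CD11b+–primed against parental cells, higher in each case (*Nfkb1*, *Relb*, *Bcl3*, *Tnfaip3* and *Tnfaip2*), against 41.0% of the 7071 genes. In Spl-Gr1+CD11b+–primed against parental cells this was so for 2 of the 8 (*Nfkb1* and *Relb*), against 37.3%. Comparing the primed groups, *Relb* was higher, against 2.76%, and *Nfkb1* lower, against 1.10%.

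With all transcripts that have no protein-coding biotype taken as 1 class, none of 30 tests over the 10 genes passed after adjustment (smallest adjusted p = 0.156, exact permutation test), and 4 had an unadjusted p under 0.05. These 4 were *Bcl3*, *Tnfaip3* and *Birc3* in Tu-Gr1+CD11b+–primed and *Nfkb1* in Spl-Gr1+CD11b+–primed against parental cells, higher in the primed cells in each case, where 29.3% and 26.6% of 9470 genes had groups that did not overlap in this direction. In *Bcl3* the share of this class was 10.4% ± 2.66 in Tu-Gr1+CD11b+–primed, 3.83% ± 4.19 in Spl-Gr1+CD11b+–primed and 3.17% ± 1.60 in parental cells (SD, n = 4). With protein-coding transcripts alone, the counts of genes called in Tu-Gr1+CD11b+–primed against parental cells stayed at 7 higher and 2 lower.

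**Figure D4:**
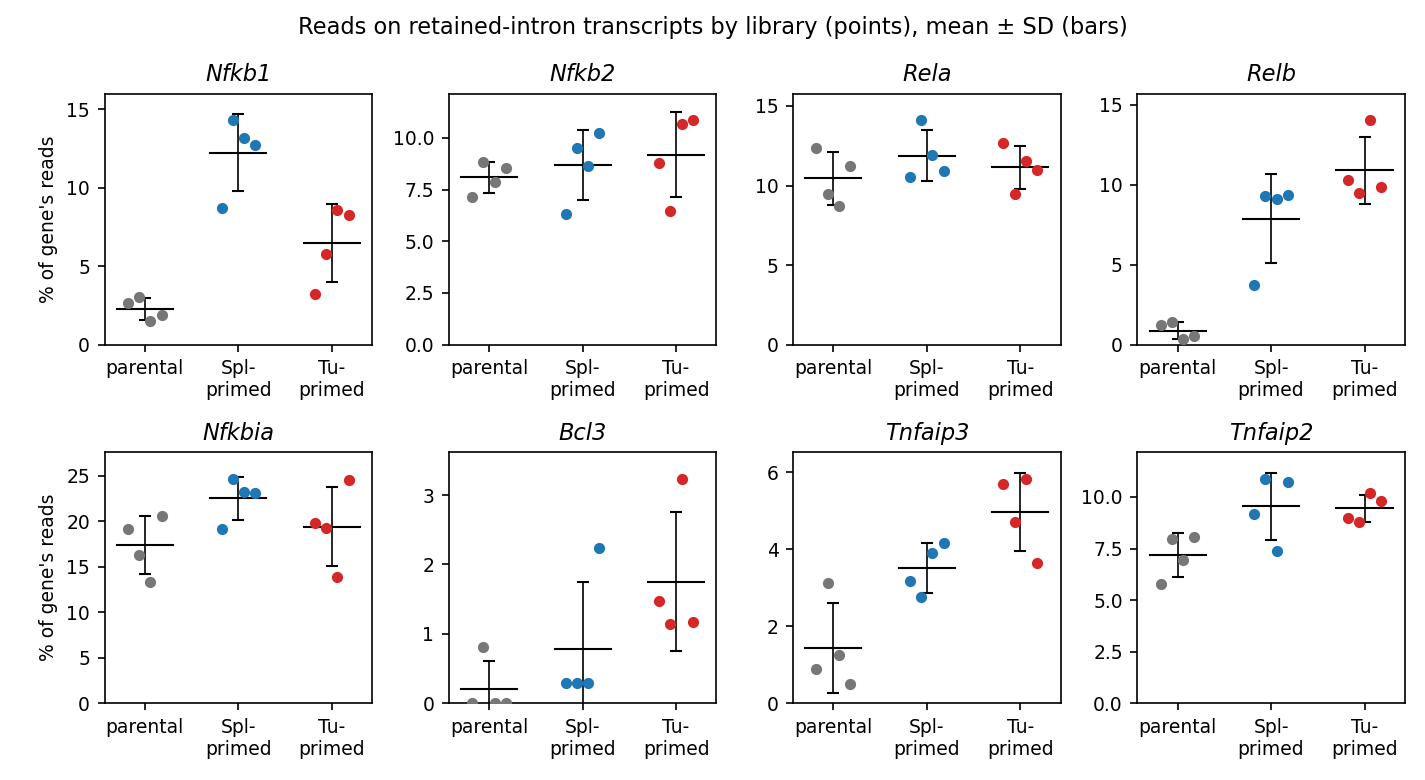
Percent of each gene's reads on retained-intron transcripts (vertical axis), with 1 point per library and the mean ± SD of 4 libraries as bars, for the 8 genes with such transcripts. *Relb* goes from 0.337% to 1.41% in parental libraries to between 9.48% and 14.0% in Tu-Gr1+CD11b+–primed libraries, and *Nfkb1* is highest in Spl-Gr1+CD11b+–primed libraries.

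The rest of the pathway was described with 7 lists of 101 genes, of which 91 were tested. In Tu-Gr1+CD11b+–primed against parental cells 51 were called higher and 11 lower (edgeR), with a median log2 fold change of 0.31. In Spl-Gr1+CD11b+–primed against parental cells 38 were higher and 15 lower, with a median of 0.15, and between the primed groups 19 were higher and 3 lower, with a median of 0.12. The 3 lower calls became 1 without Tu-Gr1+CD11b+–primed replicate 1 or 2, 0 without replicate 3 and 7 without replicate 4 of that group, and 5 without parental replicate 4. The medians of all tested genes are those given above, between -0.01 and 0.02. The counts of each list stand against 31.2% of all tested genes called higher and 28.0% called lower in Tu-Gr1+CD11b+–primed against parental cells, 25.7% and 22.5% in Spl-Gr1+CD11b+–primed against parental cells, and 4.66% and 2.97% between the primed groups. For the receptors, the adaptors and the other inhibitors, the counts in Spl-Gr1+CD11b+–primed against parental cells lay near these shares of all genes.

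Of 12 ligands, 5 were tested, and all 5 were higher in Tu-Gr1+CD11b+–primed than in parental cells (31.2% of all tested genes), 3 of them also in Spl-Gr1+CD11b+–primed cells (25.7%). *Il33*, an alarmin of the IL-1 family, had a log2 fold change of 1.41 (SE 0.07) against parental cells in Tu-Gr1+CD11b+–primed and 0.94 (SE 0.07) against Spl-Gr1+CD11b+–primed cells. *Il1a*, which encodes IL-1α, was higher by 0.61 (SE 0.06) in Tu-Gr1+CD11b+–primed and 0.43 (SE 0.06) in Spl-Gr1+CD11b+–primed cells. *Tnf* itself was not tested, with between 0 and 4 counts per library. Of the receptors, 13 of 14 were tested, and against parental cells 6 rose and 3 fell in Tu-Gr1+CD11b+–primed cells, and 3 rose and 4 fell in Spl-Gr1+CD11b+–primed cells. The TNF receptor genes *Tnfrsf1b* (0.30, SE 0.05) and *Tnfrsf1a* (0.36, SE 0.07) were higher in Tu-Gr1+CD11b+–primed than in Spl-Gr1+CD11b+–primed cells, as was *Tlr3* (0.72, SE 0.14), a sensor of double-stranded RNA that is named here after its value was seen. Against parental cells, *Tnfrsf1a* was lower in Spl-Gr1+CD11b+–primed cells (-0.21, SE 0.07, adjusted p = 0.0211, edgeR) and at 0.15 (SE 0.07, adjusted p = 0.0702, edgeR) in Tu-Gr1+CD11b+–primed cells, where it did not pass. The IL-17 receptor genes *Il17ra* and *Il17rc* were lower than in parental cells, by log2 fold changes of -0.41 (SE 0.05) and -0.36 (SE 0.08) in Tu-Gr1+CD11b+–primed and -0.26 (SE 0.05) and -0.48 (SE 0.08) in Spl-Gr1+CD11b+–primed cells.

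Among 15 adaptors and ubiquitin ligases, 6 rose and 1 fell in Tu-Gr1+CD11b+–primed cells, and 4 rose and 2 fell in Spl-Gr1+CD11b+–primed cells, each against parental cells. *Irak2*, which relays IL-1 and Toll-like receptor signals, was higher by 0.79 (SE 0.07) and 0.52 (SE 0.07), and *Rnf31*, which encodes the linear ubiquitin ligase HOIP, by 0.79 (SE 0.08) and 0.37 (SE 0.09). *Ripk1*, which encodes a kinase of the TNF receptor complex, was lower, at -0.16 (SE 0.05) and -0.30 (SE 0.05). Of 11 kinases and their partners, 7 rose and 0 fell in Tu-Gr1+CD11b+–primed against parental cells, and 8 rose and 1 fell in Spl-Gr1+CD11b+–primed cells (edgeR, where 7 and 9 had an unadjusted p under 0.05). *Tbk1*, a kinase related to the IκB kinases, was higher by 1.03 (SE 0.08) and 0.90 (SE 0.08). Of the 11, only *Ikbkg*, which encodes the scaffold NEMO, was called between the primed groups in this fit, at 0.20 (SE 0.05).

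Of the 4 further genes of the Rel and IκB families, none was called higher and 1 was called lower in each comparison (edgeR, with 2 of the 4 at an unadjusted p under 0.05 in each). *Nfkbib*, which encodes IκBβ, was lower in Tu-Gr1+CD11b+–primed (log2 fold change -0.63, SE 0.14, adjusted p = 0.00156) and also in Spl-Gr1+CD11b+–primed cells (-0.44, SE 0.14, adjusted p = 0.0169) than in parental cells in edgeR. *Nfkbie*, which encodes IκBε, was lower in Tu-Gr1+CD11b+–primed than in Spl-Gr1+CD11b+–primed cells (-0.38, SE 0.09, adjusted p = 0.0172, edgeR). This call was lost without Tu-Gr1+CD11b+–primed replicate 3. *Rel*, which encodes c-Rel, and *Nfkbid*, which encodes a nuclear IκB protein, passed in no comparison, with log2 fold changes between primed groups of -0.17 (SE 0.14) and -0.45 (SE 0.17). Against parental cells, the log2 fold changes in Spl-Gr1+CD11b+–primed cells were 0.24 (SE 0.14) for *Rel*, 0.41 (SE 0.17) for *Nfkbid* and 0.18 (SE 0.09) for *Nfkbie*, which did not pass, and the median of the 4 genes was 0.21. Of 15 other inhibitors, 14 were tested, and against parental cells 7 rose and 3 fell in Tu-Gr1+CD11b+–primed cells, and 4 rose and 3 fell in Spl-Gr1+CD11b+–primed cells. *Birc2*, which encodes cIAP1, the close relative of cIAP2, was higher by 0.84 (SE 0.07) and 0.64 (SE 0.07), and *Otulin*, which encodes an enzyme that removes linear ubiquitin chains, was lower, at -0.35 (SE 0.05) and -0.22 (SE 0.05). The 2 inhibitors called between the primed groups were *Rnf11*, which encodes a partner of A20 (0.64, SE 0.08), and *Tnip3*, which encodes the A20-binding protein ABIN-3 (0.65, SE 0.11), both higher in Tu-Gr1+CD11b+–primed cells. They were at 0.63 (SE 0.08) and 0.67 (SE 0.11) in Tu-Gr1+CD11b+–primed and at -0.01 (SE 0.08) and 0.02 (SE 0.12) in Spl-Gr1+CD11b+–primed against parental cells.

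Of 30 known targets, 29 were tested, and against parental cells 20 rose and 3 fell in Tu-Gr1+CD11b+–primed cells, and 16 rose and 4 fell in Spl-Gr1+CD11b+–primed cells. Of the same targets, 9 were above and 2 below the Spl-Gr1+CD11b+–primed level in Tu-Gr1+CD11b+–primed cells, against 4.66% and 2.97% of all tested genes. The 2 lower ones, *Vcam1* (log2 fold change -0.19, SE 0.05) and *Traf1* (-0.30, SE 0.07), are named after their values were seen. Both of these calls were lost without Tu-Gr1+CD11b+–primed replicate 3. *Nos2*, which encodes inducible nitric oxide synthase, was higher by 2.22 (SE 0.13) in Tu-Gr1+CD11b+–primed than in parental cells, and 2.82-fold higher than in Spl-Gr1+CD11b+–primed cells. *Saa3*, an acute-phase gene, was higher by 2.33 (SE 0.23) between the primed groups. *Irf1*, an interferon-responsive transcription factor gene, was higher by 0.88 (SE 0.06) in Tu-Gr1+CD11b+–primed and 0.56 (SE 0.06) in Spl-Gr1+CD11b+–primed cells, and *Lif*, a cytokine of the IL-6 family, was higher than in parental cells by 1.27 (SE 0.10) in Tu-Gr1+CD11b+–primed and 1.00 (SE 0.10) in Spl-Gr1+CD11b+–primed cells. Many of these genes are also known targets of STAT or interferon signaling.

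**Figure D5:**
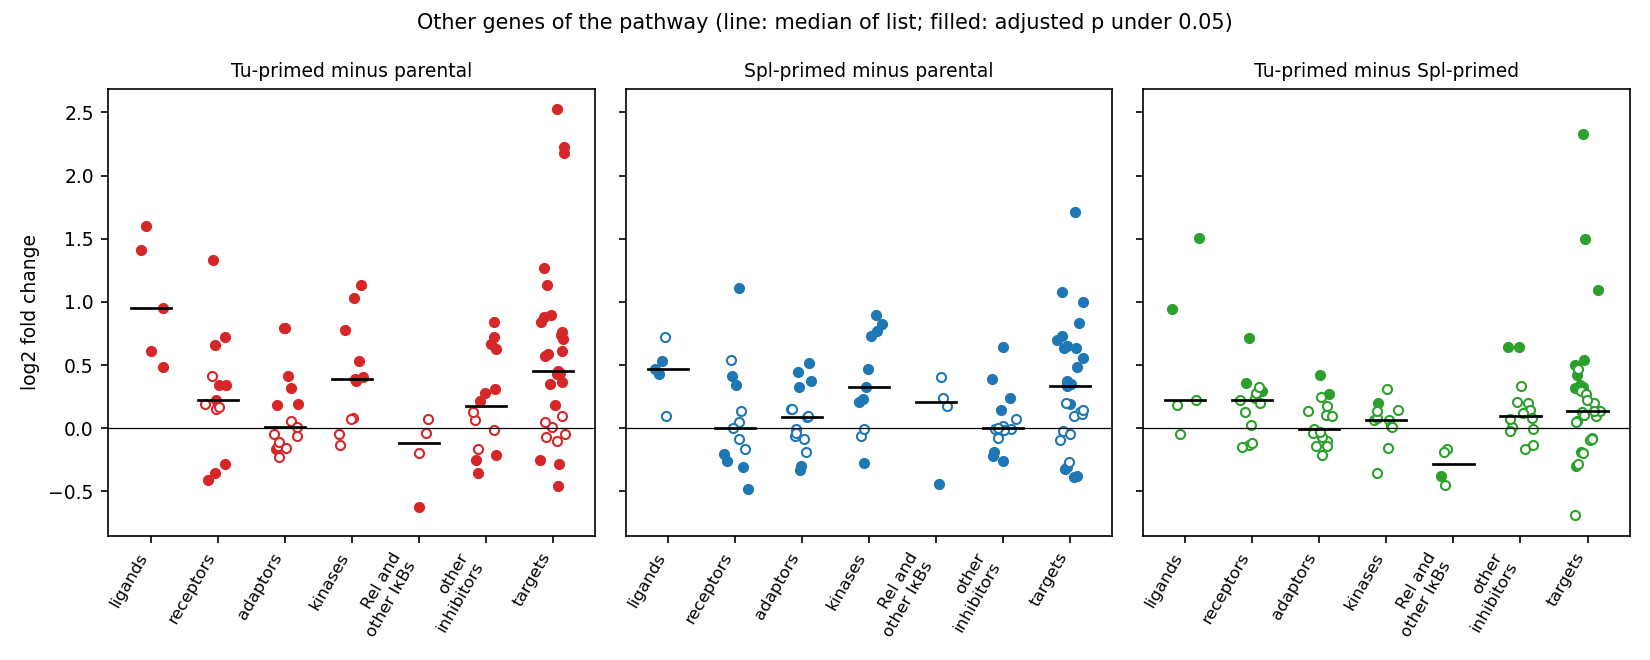
Log2 fold changes (vertical axis) of the tested genes of 7 lists of the pathway in the 3 comparisons; filled points had an adjusted p under 0.05 in edgeR, and lines are the median of a list. All 5 tested ligands are filled in Tu-Gr1+CD11b+–primed minus parental cells, and 1 of the 11 kinases and their partners is filled between the primed groups.

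The genes whose pattern was most like that of a leading member were found from log2 CPM centered on the mean of the parental libraries, by the root mean square difference over the 12 libraries. For *Bcl3* these were *H2-Q4* (0.105), *Ier3* (0.109) and *Numbl* (0.116), where the median over all genes was 0.527. *H2-Q4* belongs to a family with near-identical copies, among which reads may be divided with uncertainty. For *Tnfaip3*, which had the smallest p of the 10 genes in Spl-Gr1+CD11b+–primed against parental cells, they were *Ak4* (0.089), *Mmp11* (0.094) and *Zfp408* (0.099), where the median was 0.755. These 3 genes were higher than in parental cells by 0.92, 0.95 and 0.86 on the log2 scale in Tu-Gr1+CD11b+–primed and by 0.78, 0.81 and 0.80 in Spl-Gr1+CD11b+–primed cells. Their likeness to *Tnfaip3* follows from the way they were chosen.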

How the data were processed

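RNA was sequenced from 12 libraries of 4T1 cells, 4 in each of 3 groups, with a TruSeq stranded kit. Per the submitters' processing notes, FastQC, Trimmomatic 0.39 and Salmon 1.4.0 were used, with the builds GRCm38 and mm10. The annotation release is not given in the sources used here. The authors deposited, per library, an estimated count for every Ensembl transcript without normalization, TPM values, which their tool scaled by length and depth, and effective lengths, identical across libraries. A further deposited table holds a normalized signal per gene, made by the authors and called normalized counts.

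Gene counts are the rounded sums of these estimates over the transcripts that GENCODE M21 (GRCm38) gives for a gene, so reads are divided among transcripts as estimated by the authors' tool. Of 117081 transcripts, 116021 were annotated, and the others held between 0.326% and 0.419% of reads. R 4.3.3 with edgeR 4.0.16 was used (filterByExpr, 12555 genes, TMM factors between 0.88 and 1.05, quasi-likelihood test in a single fit without a replicate term), with Benjamini-Hochberg adjustment over all tested genes and calls at 0.05. An SE is the absolute log2 fold change over the square root of F, and log2 CPM used a prior count of 2. Transcript shares were tested by exact two-sided permutation. Precision comes from the spread over 4 libraries per group, and replicates differed beyond sampling noise (the ratio of chi-square to degrees of freedom was at least 3.45). On data simulated for the comparison of the primed groups, with 2-fold changes up or down, edgeR found 192 of 198 changed genes, called 9 unchanged ones, and called 0 of 12480 genes in data without change.

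The alternatives were DESeq2 1.42.0, limma-voom (limma 3.58.1), RLE and upper-quartile factors, no filter, a filter of 10 counts per library, protein-coding transcripts only, transcript length offsets, only the 8 libraries compared, a replicate term, and leaving out each library. The genes, lists, tests and rule for naming were chosen with earlier results of these data known. Named were every member, the 2 genes per list with the smallest p among those called in a comparison (of which the text gives some), the other Rel and IκB genes, and the 3 genes most like the leading member. Python 3.11.15 (pandas 2.3.3, numpy 2.4.6, matplotlib 3.10.9) was used for tables and plots.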

Additional observations from a re-analysis of the deposited data

Results flagged for a closer look

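In 60 groups of 4 libraries, the highest or lowest library was set against the other 3 by Dixon's ratio of gap to range at its 95% critical value, which chance exceeds in about 1 in 20 groups, and 2 stood apart. For *Nfkbiz*, parental replicate 2 was highest at 70.8 CPM, with the other parental libraries between 58.8 and 60.8 CPM. For *Tnfaip2*, Spl-Gr1+CD11b+–primed replicate 3 had the lowest share of reads on transcripts without a protein-coding biotype, 7.79%, with the others between 10.9% and 11.1%.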

How the results depend on the processing

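For the 10 genes in 3 comparisons, 22 alternatives gave 660 values, of which 618 kept their direction and side of the threshold, 39 lost the call and 3 reversed. The reversals were of *Relb* in Spl-Gr1+CD11b+–primed against parental cells, to -0.10 with protein-coding transcripts only, -0.018 without Spl-Gr1+CD11b+–primed replicate 3 and -0.015 without parental replicate 1, and leaving out a library gave between -0.018 and 0.16. In Tu-Gr1+CD11b+–primed against parental cells the counts of 7 higher and 2 lower held in all alternatives. Between the primed groups, the 4 genes called higher became 2 with transcript length offsets, and 2 to 4 when a library was left out. The 1 gene called lower, *Nfkb2*, became 0 with RLE factors, upper-quartile factors and no filter, and 0 to 1 when a library was left out. The cause was not tested. The 7 genes higher in Spl-Gr1+CD11b+–primed against parental cells became 5 with transcript length offsets, 6 to 7 with the other settings and 6 to 7 when a library was left out, and the 2 lower ones became 1 with transcript length offsets and 1 to 2 when a library was left out. The count of pathway genes called lower between the primed groups, 3, was 5 with DESeq2, 1 with length offsets and 0 to 7 when a library was left out, being 0 without Tu-Gr1+CD11b+–primed replicate 3 and 7 without replicate 4.

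The labels do not say what a replicate number marks. The deviations of same-numbered libraries from their group means had correlations of -0.164 to 0.016 between the primed groups, 0.084 to 0.148 for Tu-Gr1+CD11b+–primed and parental libraries, and -0.156 to 0.072 for Spl-Gr1+CD11b+–primed and parental libraries. In no comparison were all 4 above 0.1, nor did every library correlate best with its own number, so the numbers were not taken as a pairing. With a replicate block, the calls over all genes for Tu-Gr1+CD11b+–primed against parental cells numbered 3805 (higher) and 3389 (lower), where they numbered 3919 and 3515 without it, and 2 genes were called higher between the primed groups instead of 4, because *Birc3* (adjusted p = 0.0631) and *Tnfaip2* (adjusted p = 0.0556) were lost in edgeR, and *Bcl3* was lost in Spl-Gr1+CD11b+–primed against parental cells (adjusted p = 0.0657, edgeR). Other scalings moved the median of all genes by at most 0.028 (log2) in size. The count of members with a changed share of non-coding transcripts was 0 throughout, where 4 against 4 libraries, or 4 pairs (smallest p 0.125), could hardly pass the adjustment.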

Other observations

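The transcripts of *Relb* were assigned unevenly among libraries of a group. Relb-202 held 61.9% ± 8.76 of the reads in Tu-Gr1+CD11b+–primed, 30.7% ± 36.5 in Spl-Gr1+CD11b+–primed and 22.7% ± 34.1 in parental cells (SD, n = 4), and Relb-203, which differs from it by 6 bases in length (2203 against 2209), held none of the reads in the Tu-Gr1+CD11b+–primed libraries and 32.5% ± 39.7 and 37.6% ± 25.9 in the others. In *Nfkb1*, by contrast, the coding transcript of 3007 bases held 55.0% ± 2.34, 54.3% ± 1.93 and 56.2% ± 2.44 of the reads in the 3 groups.

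The authors' table of normalized counts was not used for tests. The log2 ratios of its group means for *Bcl3* were 0.98 between the primed groups, 1.27 in Tu-Gr1+CD11b+–primed and 0.29 in Spl-Gr1+CD11b+–primed against parental cells.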
